A study of Mus musculus with 78 samples.

Results

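The genes described here encode the pores and auxiliary subunits of voltage-gated sodium and calcium channels and the HCN channels of mouse brain. They were chosen by symbol (Scn, Cacn or Hcn families), each taken from the probe set whose mean over the 78 arrays was highest, and kept where the highest group mean reached 5.253 log2 units, the median of all values. Of 37 genes that match the symbols 29 were kept, out of 18194 genes on the arrays, of which 13053 pass the same filter. The last gene inside the filter was Cacng8, whose highest group mean was 5.882, and the first outside was Cacna1f at 5.216. Cacna1s, Cacna2d4, Cacng1, Cacng6, Scn7a, Scn10a and Scn11a also stayed below it, and other family members were not analysed here.

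Sodium channels open first in an action potential and carry its rising phase. Their alpha subunit forms the pore, and small beta subunits with a single membrane span tune its gating and surface level. Calcium channels of the L, P/Q, N, R and T types turn depolarization into calcium entry, which drives transmitter release, gene regulation and rhythmic firing, and their alpha2delta and beta subunits bring the pore to the membrane. The genes named Cacng took their name from the gamma subunit of the muscle calcium channel, but most of those active in brain encode partners of AMPA-type glutamate receptors. HCN channels open on hyperpolarization and set resting potential and rhythm. In rodent brain, sodium channel genes are known to exchange an early set for a mature set around and after birth.

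Total RNA of samples labelled brain was hybridised to 1 Affymetrix array each, with 26 groups of 3 arrays labelled biological replicates. At embryonic day 14 (E14) the mutants were Lis1 ko/cko, Lis1 ko/+, Ndel1 ko/cko, Ndel1 ko/+, Dcx ko/Y and 14-3-3 epsilon ko/ko, and the wild types came from mixed backgrounds A and B. On the day of birth (P0) they were Lis1 ko/cko and ko/+ (titled as mixed), Ndel1 ko/cko and ko/+, Dcx ko/Y, and Ndel1 ko/+ and 14-3-3 epsilon ko/ko on the inbred background 129s6, with wild types of mixed A, mixed B and inbred 129s6 background. At postnatal day 14 (P14) they were Lis1 ko/cko and ko/+, Ndel1 ko/cko and ko/+ and a further Ndel1 ko/+ group labelled as mixed background, with the same 3 wild types. Here ko is a null and cko a conditional allele; the labels name no Cre driver, and they do not say which mixed wild type belongs to which mutant. Lis1 is Pafah1b1, a dynein regulator, Ndel1 its binding partner, 14-3-3 epsilon (Ywhae) a protein that binds phosphorylated Ndel1, and doublecortin (Dcx) a microtubule protein of migrating neurons. The series asks whether mutants of this neuronal migration complex change gene expression alike.

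Several libraries stood apart or went against their labels. Dcx lay between 4.16 and 4.87 log2 units in all Dcx ko/Y arrays, and Ywhae between 9.72 and 10.04 in inbred 14-3-3 epsilon ko/ko at P0. In the libraries labelled 14-3-3 epsilon ko/ko at E14 Ywhae ranged over 9.97 to 12.92, against 12.97 to 13.09 over both mixed wild types. Ndel1 was no lower than in wild type in the libraries labelled inbred Ndel1 ko/+ at P0 or mix-labelled Ndel1 ko/+ at P14, and those labelled Ndel1 ko/cko at E14 averaged 9.82, where mixed A averaged 9.90 and mixed B 9.91. At P0 Ndel1 ran from 9.51 to 9.63 in ko/cko and from 9.27 to 9.40 in ko/+, so ko/cko was the higher of these. Pafah1b1 averaged 10.08 in Lis1 ko/cko and 10.01 in ko/+ at P0, where mixed A averaged 10.51 but mixed B 9.95, and at P14 10.36 in ko/cko and 10.21 in ko/+. The first principal component held 48.45% of the variance at E14, where 6 arrays stood apart (mixed A replicates 2 and 3, Lis1 ko/cko replicates 1 and 3, Lis1 ko/+ replicate 1 and 14-3-3 epsilon ko/ko replicate 2). It held 39.36% at P0 and 57.62% at P14, and there it placed mixed A, the Lis1 groups and all groups labelled inbred or mix on one side and mixed B, Ndel1 ko/cko, Ndel1 ko/+ and Dcx ko/Y on the other. Whether these sides are backgrounds, batches or litters cannot be told apart from the labels. Actin signal at the 3′ minus the 5′ probe sets (log2), a sign of RNA length, ran from 0.122 to 0.214 on the mixed A side and from 0.274 to 0.449 on the mixed B side at P0, with no overlap, and overlapped between the sides at P14 (0.497 to 0.956 and 0.627 to 0.717). The mean level of 10 neuronal marker genes ran from 10.06 to 11.11 in E14 arrays, 10.68 to 11.09 at P0 and 11.59 to 11.89 at P14, while markers of skeletal and heart muscle reached at most 5.26 in any array. In such bulk tissue fewer cells of a type and less RNA per cell cannot be told apart.

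**Figure D1:**
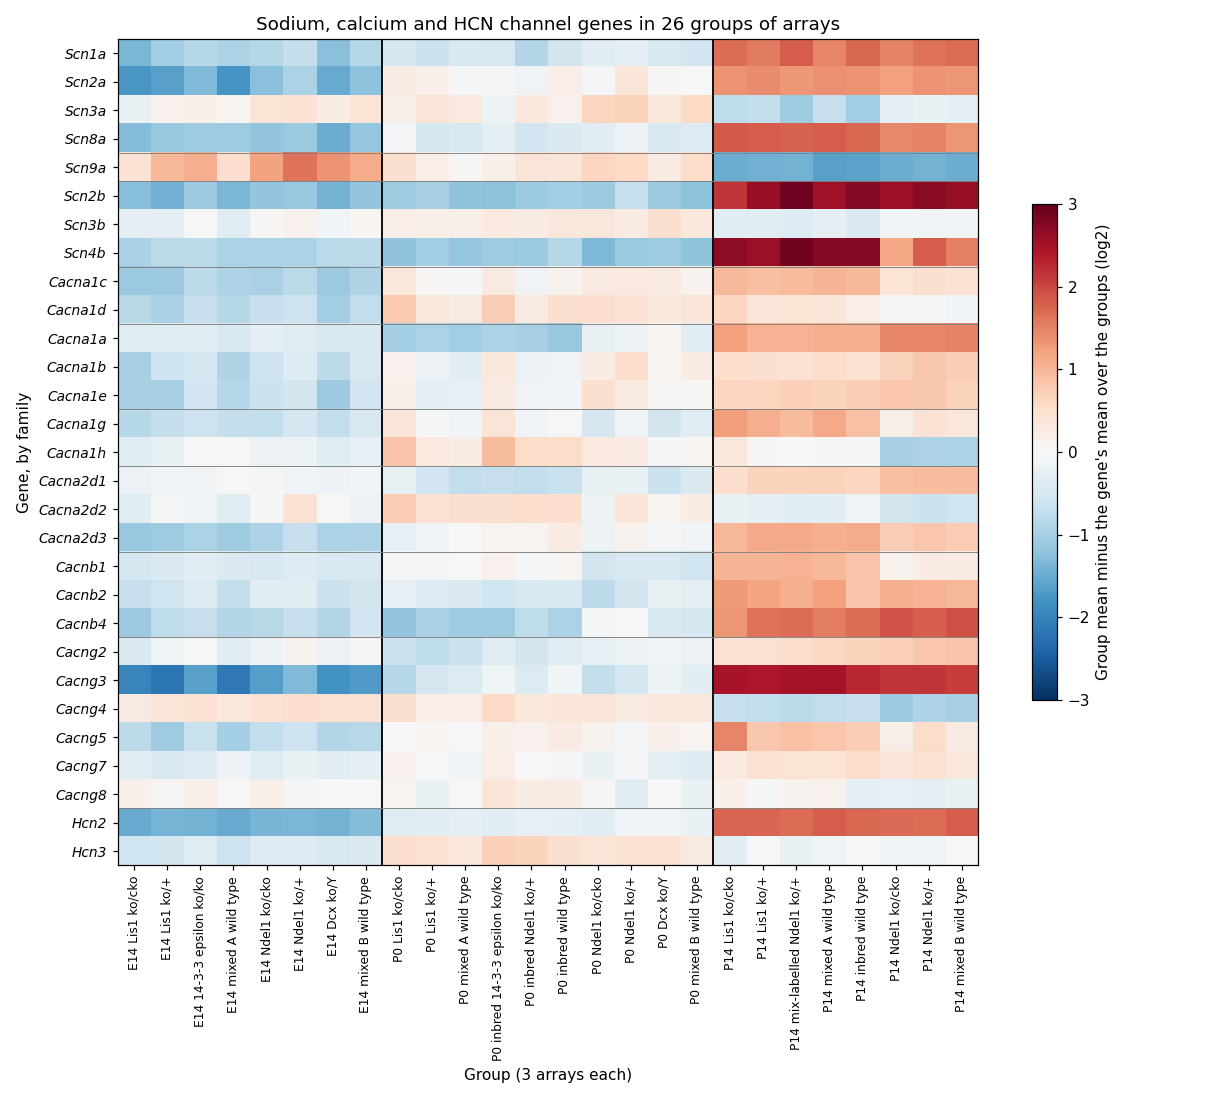
Mean log2 level of each of the 29 channel genes in each of the 26 groups (3 arrays each), minus the gene's mean over the groups; red is above it and blue below, with vertical lines between ages and horizontal lines between families. Age sets the main blocks: Scn2b, Scn4b, Cacng3, Scn1a, Scn8a and Hcn2 are red at P14, and Scn9a and Scn3a are blue there.

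Most of the 29 genes rose with age, in 2 steps that involved partly different members. At P0, against E14, 14 genes were called, all higher, in both mixed wild types (limma, adjusted p under 0.05 after Benjamini-Hochberg over all genes). Of all 12865 genes tested 49.8% were called, 14.8% higher and 35% lower. At P14, against P0, 24 of 29 were called in both mixed wild types, 18 higher and 6 lower, where 56.4% of all genes were called, 34.3% higher and 22.1% lower. Among them Scn4b passed the filter only through P14 groups and Scn9a only through earlier ones. In the wild types, whose fit gave these calls, Cacna1a too reached the filter level only at P14. The shares of all genes rest on a filter at the same level. In the inbred wild type, which has no E14 arrays, 28 of 29 were called between P14 and P0, 20 higher and 8 lower, beside 71.7% of all genes (38% higher and 33.8% lower). The deposited values appear to be normalised within each age, so changes between ages are given relative to the median gene, whose own change was -0.19 log2 units from E14 to P0 and 0.13 from P0 to P14 in the mixed wild types (0.04 inbred). On that scale the median member changed by 0.57 at P0 against E14 and by 0.78 at P14 against P0 (0.82 inbred). Errors are standard errors of the fit with 3 arrays a group, and p-values measure the spread between labelled replicates. Tests were run on changes before the shift by the median gene. A p-value or call between ages therefore does not test the shifted value beside it. Without the 6 E14 arrays that stood apart, 14 genes were called at P0 against E14, 12 of them the same; mixed A then has 1 array at E14, assumed to vary like the other groups. The actin difference between 3′ and 5′ ends also moved with age: it was 0.157 to 0.223 in wild types at E14, 0.122 to 0.358 at P0 and 0.497 to 0.956 at P14, and its part in the changes was not tested. The deposited table holds no detection calls. Where a gene had arrays under 5.253 at 1 age of a step, its change in that step is a difference of signals and no fold is given. Such genes include Scn4b, Scn9a, Cacna1a and, at P0 against E14, Hcn2 and Cacna1c.

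**Figure D2:**
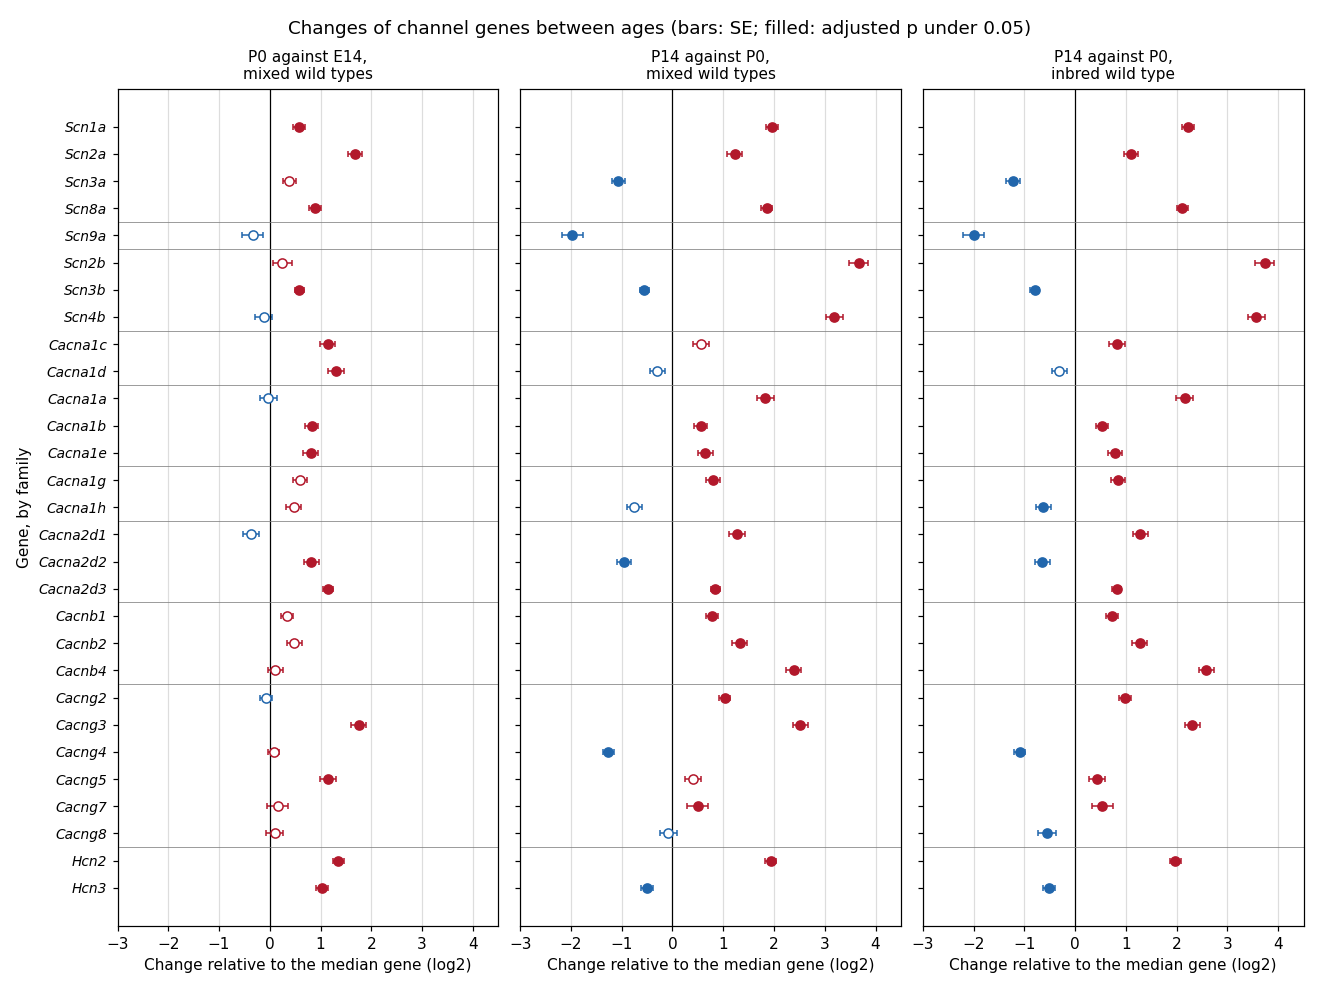
Change of each channel gene relative to the median gene (log2, bars are the SE, 3 arrays a group) at P0 against E14 and P14 against P0 in both mixed wild types, and P14 against P0 in inbred wild type; filled points passed adjusted p under 0.05. The test was of the change before the shift by the median gene. Cacng3, Scn2a and Hcn2 lead the first step, Scn2b and Scn4b the second, and Scn9a, Cacng4 and Scn3a lie left of 0 in both panels of the second.

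Among the pore-forming sodium channel genes of brain, Scn2a rose first, Scn1a and Scn8a later, and Scn3a fell. Scn2a, the main early alpha subunit of excitatory neurons and their axons, was at 8.74, 8.06 and 8.19 in mixed A at E14, 10.41, 10.14 and 9.64 at P0 and 11.49, 11.45 and 11.46 at P14. In mixed B it was at 8.87, 8.86 and 8.86, then 10.12, 10.16 and 10.05, then 11.37, 11.42 and 11.47. No arrays of neighbouring ages overlapped. The rise was 3.21-fold relative to the median gene at P0 against E14 (1.68 ± 0.14 log2 units, adjusted p = 1.16e-07) and 2.33-fold at P14 against P0 (1.22 ± 0.14, adjusted p = 2.82e-08).

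Scn1a, the alpha subunit that fast-spiking inhibitory neurons depend on, was at 6.73, 6.46 and 6.52 in mixed A at E14, 7.12, 7.02 and 7.02 at P0 and 9.01, 8.87 and 9.07 at P14. Mixed B arrays held it at 6.55, 6.70 and 6.74, then 7.04, 6.81 and 7.00, then 8.93, 9.28 and 9.38. Its first step was small, 0.57 ± 0.12 log2 units relative to the median gene, or 0.38 before that shift (adjusted p = 0.0457). The second was 3.89-fold (1.96 ± 0.12, adjusted p = 1.63e-12). The call of the first step was lost without the E14 arrays that stood apart, with 1 mixed A array left at E14 (adjusted p = 0.12). It was also lost without mixed B replicate 1 (0.169) or 2 (0.0694) at E14, mixed A replicate 1 (0.0501) or 2 (0.0513) at P0, or mixed B replicate 1 (0.147) or 3 (0.122) at P0. Nor did it hold with no filter (0.0573), in 1 fit of all arrays (0.123) or with the replicate number as a block (0.0514).

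Scn8a, the alpha subunit of mature axon initial segments and nodes of Ranvier, followed the same order. It was at 6.86, 6.98 and 7.14 in mixed A at E14, 7.62, 7.82 and 7.35 at P0 and 9.91, 9.84 and 9.91 at P14, and in mixed B at 6.88, 6.82 and 6.99, then 7.71, 7.70 and 7.63, then 9.36, 9.45 and 9.31. Relative to the median gene it rose 1.85-fold at P0 (0.89 ± 0.11, adjusted p = 7.32e-05) and 3.63-fold at P14 (1.86 ± 0.11, adjusted p = 7.06e-12).

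Scn3a, known as the form of embryonic and newborn rodent brain, went the other way. Its arrays at P14 lay between 8.13 and 8.46 in mixed A and between 8.60 and 8.77 in mixed B, and at P0 between 9.21 and 9.40 in mixed A and between 9.50 and 9.80 in mixed B. At P0, against E14, it did not pass the test (0.38 ± 0.14, adjusted p = 0.316). At P14 it fell by 1.07 ± 0.14 log2 units relative to the median gene in the mixed wild types (adjusted p = 4.99e-06) and by 1.22 ± 0.14 in inbred (adjusted p = 6.67e-08). The inbred wild type held 7.86, 7.78 and 8.23 at P14 and 9.10, 8.95 and 9.36 at P0, and no wild type's P14 arrays overlapped those of P0. With the mean of all Scn3a probe sets the fall was smaller, -0.30 in place of -0.93 in the mixed wild types and -0.41 in place of -1.18 in inbred, before the shift by the median gene.

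Scn9a, the alpha subunit of sensory and sympathetic neurons, had the steepest fall of the 29 genes. At P14 it was at 3.47, 3.38 and 3.36 in mixed A and 3.64, 3.61 and 3.45 in mixed B, and at P0 at 4.96, 5.20 and 5.05 in mixed A and 5.53, 5.67 and 5.56 in mixed B. All P14 arrays lay far under 5.253, so Scn9a passed the filter through E14 and P0 groups only and a lower level at P14 came with that. The change at P14 was -1.97 ± 0.21 relative to the median gene (adjusted p = 3.31e-07), and -1.99 ± 0.21 in inbred. At E14 mixed A replicate 1 held 6.38, and replicates 2 and 3, which stood apart, held 5.09 and 5.20, against 6.34, 6.08 and 6.06 in mixed B. Markers of sensory ganglia ran between 5.25 and 6.21 in the same mixed A arrays and between 6.02 and 6.08 in mixed B, and a score of 5 Hox genes of hindbrain and spinal cord was 7.70 in mixed A replicate 1 against 4.87 in both others. Their part in the Scn9a level was not tested.

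**Figure D3:**
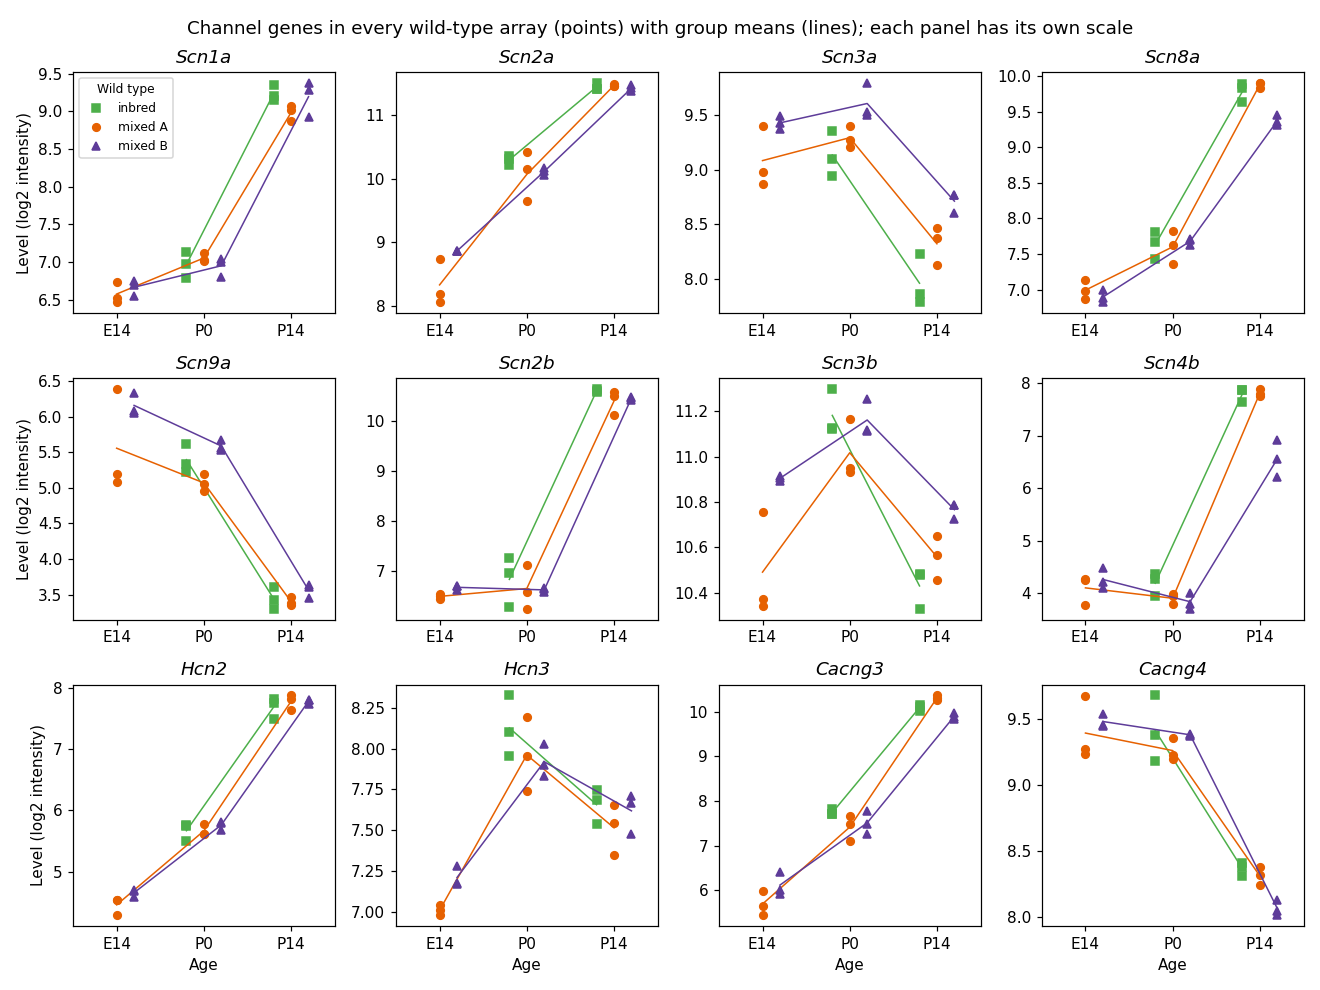
Log2 level of 12 channel genes in every wild-type array at E14, P0 and P14 (points; lines join the means of 3 arrays; colours give the background, and inbred has no E14 arrays); each panel has its own vertical scale. Scn2a climbs at both steps, Scn1a, Scn8a, Scn2b, Scn4b, Hcn2 and Cacng3 climb most by P14, and Scn3a, Scn9a and Cacng4 end lowest at P14.

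Scn4b and, on the probe set used, Scn2b had the largest changes of all members, both at P14. Scn4b passed the filter through P14 groups only, and a higher level at P14 came with that. Scn2b and Scn4b encode the beta subunits that bind the pore through a disulfide bond. Scn2b arrays lay between 6.43 and 6.70 at E14 and between 6.24 and 7.12 at P0 in the mixed wild types, and between 10.12 and 10.58 at P14. It rose 12.7-fold relative to the median gene at P14 against P0 (3.67 ± 0.19, adjusted p = 6.28e-14) and 13.3-fold in inbred (3.73 ± 0.19). With the mean of all Scn2b probe sets the rise was 2.39 in place of 3.80 log2 units in the mixed wild types and 1.97 in place of 3.78 in inbred, before the shift by the median gene. At P0, against E14, Scn2b did not pass (0.24 ± 0.19, adjusted p = 1).

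Scn4b, whose product takes part in resurgent sodium current of Purkinje cells, was near the bottom of the scale before P14. It was at 7.77, 7.79 and 7.89 in mixed A at P14 and 3.98, 3.79 and 3.94 at P0, and in mixed B at 6.92, 6.21 and 6.55 at P14 and 3.79, 4.01 and 3.71 at P0. The rise was 3.19 ± 0.16 log2 units relative to the median gene (adjusted p = 1.48e-12) in the mixed wild types and 3.57 ± 0.16 in inbred. Scn3b, a beta subunit bound without that bond, peaked at P0 instead. It rose by 0.58 ± 0.09 at P0 (adjusted p = 0.0187, 0.088 without mixed B replicate 1 at P0) and fell by 0.56 ± 0.09 at P14 (adjusted p = 0.000517).

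Scn2b and Scn4b are neighbours with no protein-coding gene between them on chromosome 9, and both rose. On chromosome 2 neighbours moved apart: Scn1a rose and Scn9a beside it fell, and Scn2a rose while Scn3a beside it fell. The 250 bases before the listed start are shown for 1 pair of each kind, from RefSeq (GRCm38.p6), to set neighbours of like and of opposite change side by side; capitals mark each CG dinucleotide.
Scn2b (chr9:45117626-45117875, plus strand): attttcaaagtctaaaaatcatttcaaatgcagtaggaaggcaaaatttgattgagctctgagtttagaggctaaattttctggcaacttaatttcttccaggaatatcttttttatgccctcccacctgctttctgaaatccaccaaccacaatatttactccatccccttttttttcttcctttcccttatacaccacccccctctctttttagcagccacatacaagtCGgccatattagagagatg
Scn4b (chr9:45138374-45138623, plus strand): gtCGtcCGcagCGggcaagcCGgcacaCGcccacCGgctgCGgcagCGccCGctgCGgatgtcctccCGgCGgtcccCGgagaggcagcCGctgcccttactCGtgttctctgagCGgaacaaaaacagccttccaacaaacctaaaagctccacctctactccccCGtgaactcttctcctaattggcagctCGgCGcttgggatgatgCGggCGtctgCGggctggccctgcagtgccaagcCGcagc
Scn1a (chr2:66440838-66441087, minus strand): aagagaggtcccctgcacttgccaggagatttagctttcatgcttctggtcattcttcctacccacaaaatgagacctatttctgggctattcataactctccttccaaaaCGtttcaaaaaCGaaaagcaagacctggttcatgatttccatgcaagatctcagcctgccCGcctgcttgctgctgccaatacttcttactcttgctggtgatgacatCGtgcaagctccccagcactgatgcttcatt
Scn9a (chr2:66634963-66635212, minus strand): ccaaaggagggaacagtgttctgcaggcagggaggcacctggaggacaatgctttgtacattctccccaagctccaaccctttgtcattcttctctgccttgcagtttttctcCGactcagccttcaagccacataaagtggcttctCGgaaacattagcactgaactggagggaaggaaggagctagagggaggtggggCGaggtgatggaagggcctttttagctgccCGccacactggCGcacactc
The Scn2b window held 1 CG and the Scn4b window 23, and the Scn1a and Scn9a windows held 4 and 5. CG reads the same on both strands. Among all 32851 windows of this length in the table, 92.1% held at least 1 CG and the median was 6, with fewer than in Scn2b in 7.9% and fewer than in Scn4b in 86.7% of them. TATAAA was searched on both strands and was in none of the 4 windows, 2 of the 32 windows of the 22 members in the table, and 12.4% of all windows. These matches describe the letters only.

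Both HCN genes kept here rose before birth and then parted. Hcn2, a main HCN channel of thalamus and other deep brain nuclei, was at 4.54, 4.54 and 4.29 in mixed A at E14, 5.61, 5.62 and 5.77 at P0 and 7.64, 7.87 and 7.82 at P14. In mixed B it was at 4.70, 4.69 and 4.58, then 5.69, 5.81 and 5.79, then 7.80, 7.74 and 7.79, so that every age was clear of the next. Its rise relative to the median gene was 1.35 ± 0.11 log2 units at P0 (adjusted p = 1.5e-08) and 3.82-fold at P14 (1.93 ± 0.11, adjusted p = 2.27e-13). Hcn3 rose 2.03-fold at P0 (1.02 ± 0.12, adjusted p = 1.94e-05) and fell by 0.50 ± 0.12 at P14 (adjusted p = 0.0302), with arrays of 7.35 to 7.71 at P14 and 7.74 to 8.19 at P0 in the mixed wild types. That fall did not pass without mixed B replicate 1 (0.119) or 3 (0.054) at P0 or mixed B replicate 3 at P14 (0.141), but it passed in inbred (-0.51 ± 0.12, adjusted p = 0.000963).

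The calcium channel pores divided by type. The P/Q-type gene Cacna1a, whose channel carries most fast transmitter release in mature brain, did not pass at P0 against E14 (-0.03 ± 0.17, adjusted p = 1) and rose by 1.83 ± 0.17 at P14 (adjusted p = 2.82e-09). With the mean of its probe sets that rise was 1.05 in place of 1.96, before the shift by the median gene. Its arrays lay between 6.57 and 6.61 in mixed A and between 6.95 and 7.09 in mixed B at P14, and at 4.34, 4.36 and 4.73 in mixed A and 5.25, 5.27 and 5.07 in mixed B at P0. The N-type gene Cacna1b, also a channel of transmitter release, and the R-type gene Cacna1e rose at both steps and by less. Cacna1b rose by 0.82 ± 0.12 and then 0.56 ± 0.12, and Cacna1e by 0.80 ± 0.14 and then 0.64 ± 0.14, with adjusted p between 0.000561 and 0.00115. At E14 and P0 the arrays of Cacna1b and of Cacna1e overlapped between ages, and without the E14 arrays that stood apart Cacna1b did not pass there (adjusted p = 0.0715, with 1 mixed A array left at E14).

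L-type genes rose at the first step. Cacna1c, which couples calcium entry to gene regulation, was at 6.34, 6.51 and 5.99 in mixed A and 6.20, 6.55 and 6.54 in mixed B at P0, and at 5.44, 5.10 and 5.68 in mixed A and 5.13, 5.47 and 5.64 in mixed B at E14. It rose by 1.14 ± 0.15 (adjusted p = 4.14e-05), and Cacna1d, an L-type gene of pacemaking neurons, by 1.30 ± 0.15 (adjusted p = 1.77e-06). At P14, against P0, neither passed in the mixed wild types: Cacna1c changed by 0.56 ± 0.15 with adjusted p = 0.0687 and Cacna1d by -0.30 ± 0.15 with adjusted p = 1. In inbred Cacna1c rose there (0.83 ± 0.15, adjusted p = 2.4e-05), but not with the mean of its probe sets (0.12, adjusted p = 0.466). Of the T-type genes, whose channels open near rest and support burst firing, Cacna1g rose at P14 (0.81 ± 0.14, adjusted p = 0.000283) and Cacna1h did not pass in the mixed wild types (-0.75 ± 0.15, adjusted p = 0.308) but fell in inbred (-0.62 ± 0.15, adjusted p = 0.00133), a call lost with the mean of its probe sets (-0.21, adjusted p = 0.0958). Neither T-type gene passed at P0 against E14.

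Of the auxiliary calcium channel subunits, the beta subunits changed after birth. All 3 beta subunit genes kept here, whose cytoplasmic products carry the pore to the membrane, rose at P14 and none passed at P0. Cacnb4, the gene mutated in the lethargic mouse, was at 10.52, 10.39 and 10.50 in mixed A and 10.73, 11.02 and 10.73 in mixed B at P14, and at 7.80, 7.87 and 7.91 in mixed A and 8.67, 8.22 and 8.32 in mixed B at P0. That is 5.24-fold relative to the median gene (2.39 ± 0.15, adjusted p = 1.63e-12), beside 2.5-fold for Cacnb2 and 1.72-fold for Cacnb1.

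The alpha2delta genes differed among themselves. Cacna2d3 rose at both steps (1.14 ± 0.09, adjusted p = 6.92e-08, and 0.84 ± 0.09, adjusted p = 2.4e-08). Cacna2d1, a target of gabapentin, fell short of the test at P0 (-0.37 ± 0.15, adjusted p = 0.0516) and rose 2.42-fold at P14 (1.27 ± 0.15, adjusted p = 4.24e-08), or by 0.61 in place of 1.40 before the shift with the mean of its probe sets. Cacna2d2, the other gabapentin-binding subunit, was highest at P0 on the probe set used: it rose by 0.81 ± 0.14 at P0 (adjusted p = 0.0232) and fell by 0.95 ± 0.14 at P14 (adjusted p = 3.92e-05). With the mean of its probe sets neither change passed (0.12, adjusted p = 1, and -0.12, adjusted p = 0.202). The first of these calls on Cacna2d2 was also lost without mixed B replicate 1 (0.0601) or 3 (0.0706) at E14 and without mixed B replicate 2 (0.0531) or 3 (0.0799) at P0.

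Within the Cacng family, the partners of AMPA receptors, Cacng3 rose and Cacng4 fell. Cacng3 was at 5.99, 5.64 and 5.45 in mixed A at E14, 7.48, 7.11 and 7.66 at P0 and 10.31, 10.37 and 10.26 at P14, and in mixed B at 5.92, 6.42 and 6.01, then 7.49, 7.77 and 7.27, then 9.89, 9.98 and 9.84. Its rise was 3.36-fold at P0 (1.75 ± 0.15, adjusted p = 4.72e-08) and 5.71-fold at P14 (2.51 ± 0.15, adjusted p = 2.51e-12), the only member among the 3 largest rises of both steps. Cacng4 lay between 8.01 and 8.37 at P14 and between 9.20 and 9.38 at P0 in the mixed wild types, a fall of 1.26 ± 0.11 relative to the median gene (adjusted p = 6.07e-08). Cacng2, or stargazin, the gene of the stargazer mouse, rose 2.04-fold at P14 (1.03 ± 0.11, adjusted p = 3.63e-08). Cacng5 rose at P0 (1.14 ± 0.16, adjusted p = 4.64e-05; 0.55 in place of 0.95 before the shift with the mean of its probe sets) and changed by 0.41 ± 0.16 at P14 (adjusted p = 0.242). Cacng7 rose by 0.50 ± 0.21 at P14 (adjusted p = 0.035), a call lost without mixed A replicate 1 (0.077) or 2 (0.108) at P0 and without mixed A replicate 1 (0.148) or 2 (0.0674) at P14. Cacng8 passed in neither step in the mixed wild types and fell in inbred at P14 (-0.55 ± 0.17, adjusted p = 0.00986), a direction that turns with the mean of its probe sets (0.16 before that shift).

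Genes whose products hold these channels in place were counted too, in the mixed wild types at P14 against P0. In that step 34.3% of all genes were called higher and 22.1% lower. Of 19 genes of the axon initial segment and node 17 were tested at P14 against P0, 11 rose and 1 fell, with a median of 0.70 relative to the median gene. Lgi3 led with 3.39 ± 0.15, followed by Lgi1 with 1.64 ± 0.08, while Cntnap2, which clusters potassium channels beside nodes, fell by 0.59 ± 0.11. Of 16 scaffolds and regulators of calcium channels 12 were tested and 10 rose, among them Cabp1 (1.89 ± 0.19) and Rims1 (1.69 ± 0.09), with a median of 1.22. Of 9 HCN partners and sodium leak channel genes 6 were tested, 3 rose and 1 fell, too few to set apart from those shares. Unc80 rose by 2.45 ± 0.10 and Pex5l, the HCN trafficking protein TRIP8b, by 2.37 ± 0.14, and the actin crosslinker Flna fell by 1.14 ± 0.16. Over the same step markers of cell types moved too: 6 of 10 neuronal markers rose and 1 fell, 5 of 7 oligodendrocyte and 6 of 7 astrocyte markers rose, and 7 of 8 progenitor markers fell. Their part in the channel values was not tested.

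The 2 mixed wild types differed from each other in these genes at P14, less at P0, and not by the test at E14. At E14 mixed A against mixed B gave 0 of 26 members tested, beside 0.0681% of all genes. At unadjusted p under 0.05 it gave 1 member, beside 1866 of 11744 genes. At P0 6 of 28 were called, beside 28.7% of all genes (18.1% higher and 10.7% lower in mixed A): Cacnb1 was higher and Cacna1a, Cacna1b, Cacnb4, Cacng2 and Scn9a lower in mixed A. The call on Cacnb4 was lost without mixed B replicate 1 (adjusted p = 0.0713), that on Cacna1b without mixed A replicate 3 (0.0871) and with the mean of its probe sets (-0.18, 0.476), and that on Scn9a in 1 fit of all arrays (0.223). Actin 3′ minus 5′ signal was 0.154 to 0.205 in mixed A and 0.277 to 0.358 in mixed B at P0, and its part in these differences was not tested. At P14 15 of 28 were called, 11 higher and 4 lower in mixed A, beside 52.7% of all genes (37.4% higher and 15.2% lower), so the members' share was near the background. The median gene itself differed by 0.14 there, and values in this comparison are not shifted.

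The largest of these differences at P14 were in Scn4b, Cacna1h and Cacna1g. Cacna1h was at 7.65, 7.47 and 7.47 in mixed A against 6.54, 6.67 and 6.40 in mixed B, a difference of 0.99 ± 0.16 (adjusted p = 1.76e-05), or 0.52 with the mean of its probe sets. Cacna1g was at 8.40, 8.43 and 8.44 in mixed A against 7.64, 7.53 and 7.70 in mixed B (0.80 ± 0.10, adjusted p = 8.49e-07). For Scn4b, whose arrays are given above, the difference was 1.25 ± 0.39 (adjusted p = 0.00989). Inbred wild type against both mixed wild types gave 0 of 28 members at P0 and at P14, beside 1% and 0.244% of all genes. At unadjusted p under 0.05 it gave 1 and 0 members, beside 1739 of 11780 and 923 of 12297 genes. Against mixed B alone 15 of 28 were called at P14 in inbred (48.6% of all genes), and against mixed A alone none (4.2% of all genes).

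Few members were called in a mutant. Each mutant was set against both mixed wild types of its age and called only where both differences passed in the same direction, with the mean of both given as the change. At E14 the 6 mutant groups gave 0 of 26 members, beside 0.0426% of all genes called in Dcx ko/Y, 0.0341% in Ndel1 ko/+ and 0% in the others. At most 1 member had an unadjusted p under 0.05 in any group, beside 42 (Lis1 ko/+) to 837 (Lis1 ko/cko) of 11744 genes. At P0 Ndel1 ko/+ gave 1 of 28 (4.05% of all genes). Ndel1 ko/cko, Lis1 ko/cko, Dcx ko/Y and Lis1 ko/+ gave 0 (0.849%, 0.331%, 0.0255% and 0% of all genes). These 4 groups had 5, 6, 2 and 0 members at unadjusted p under 0.05, beside 1048, 1276, 346 and 183 of 11780 genes. The inbred mutants, against inbred wild type, gave 0 too: Ndel1 ko/+ with 0.255% and 14-3-3 epsilon ko/ko with 0.0255% of all genes called. They had 3 and 5 members at unadjusted p under 0.05, beside 1791 and 1161 of 11780 genes. At P14 Lis1 ko/cko gave 2 of 28 (6.32% of all genes). Lis1 ko/+, Ndel1 ko/cko, Ndel1 ko/+ and mix-labelled Ndel1 ko/+ gave 0 there, beside 0%, 0.0895%, 0% and 0.114% of all genes. These groups had 0, 0, 0 and 2 members at unadjusted p under 0.05, beside 194, 385, 128 and 533 of 12297 genes.

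The member called at P0 was Cacnb4. It was at 8.88, 9.03 and 8.93 in Ndel1 ko/+, against 7.80, 7.87 and 7.91 in mixed A and 8.67, 8.22 and 8.32 in mixed B. All mutant arrays lay above both wild types, by 1.09 ± 0.15 and 0.55 ± 0.15 (mean 0.82, adjusted p = 0.0345). Ndel1 ko/cko at P0 held 8.87, 8.80 and 8.97, also above both, and did not pass the test (0.75 ± 0.15, adjusted p = 0.157). Actin 3′ minus 5′ signal was 0.391 to 0.431 in Ndel1 ko/+, above both mixed wild types too, and its part was not tested. The call in Ndel1 ko/+ was lost without mixed B replicate 2 (0.176) or 3 (0.142), and without Ndel1 ko/+ replicate 1 (0.0693), 2 (0.131) or 3 (0.107). In the inbred background Cacnb4 was at 8.23, 8.19 and 8.05 in the libraries labelled Ndel1 ko/+, against 7.58, 8.02 and 8.36 in wild type, and these overlapped.

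**Figure D4:**
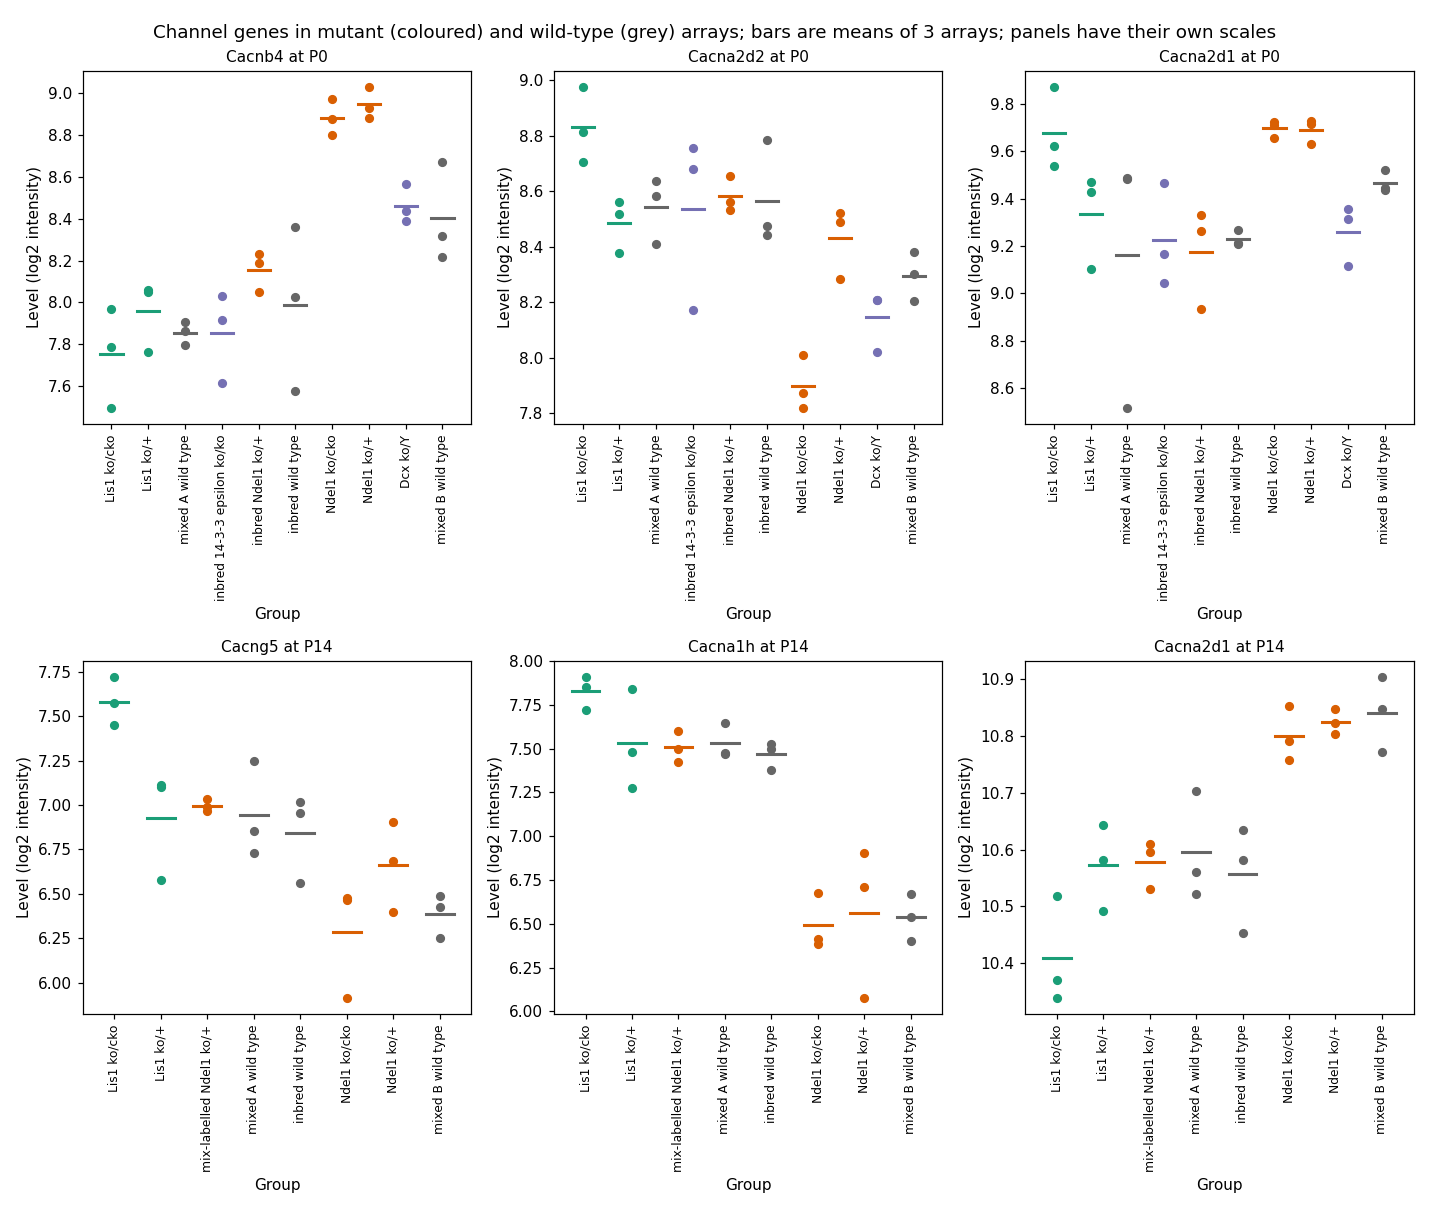
Log2 level in every array (points; bars are means of 3) of Cacnb4, Cacna2d2 and Cacna2d1 in the 10 groups of P0 and of Cacng5, Cacna1h and Cacna2d1 in the 8 groups of P14; wild types are grey, and each panel has its own scale. Cacnb4 is highest in Ndel1 ko/cko and ko/+ at P0 and Cacng5 in Lis1 ko/cko at P14, and Cacna1h follows the side of mixed A or mixed B.

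At P14 Lis1 ko/cko differed in Cacng5 and Scn2b. Cacng5, an AMPA receptor partner, was at 7.57, 7.72 and 7.45 in Lis1 ko/cko, against 7.25, 6.73 and 6.85 in mixed A and 6.42, 6.25 and 6.49 in mixed B. It was higher by 0.64 ± 0.17 and 1.19 ± 0.17 (mean 0.92, adjusted p = 0.0301), with no overlap, and a second Cacng5 probe set was higher by 0.65 ± 0.14. Lis1 ko/+ held 6.58, 7.10 and 7.11, overlapping mixed A, and Lis1 ko/cko was higher than it by 0.65 ± 0.17 (adjusted p = 0.0261). The call against wild type was lost without Lis1 ko/cko replicate 1 (0.124) or 2 (0.182) or mixed A replicate 2 (0.139) or 3 (0.12), and the call against ko/+ without Lis1 ko/cko replicate 1 (0.119) or 2 (0.153) or Lis1 ko/+ replicate 1 (0.0743).

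Scn2b was at 10.08, 10.28 and 9.64 in Lis1 ko/cko at P14, against 10.49, 10.12 and 10.58 in mixed A and 10.48, 10.42 and 10.47 in mixed B. The arrays overlapped those of mixed A, and the mean difference was -0.43 ± 0.12 (adjusted p = 0.0454). Of 17 alternatives 5 kept this call, and the mean of all Scn2b probe sets gave 0.46 instead. The call was lost without any one of the 3 Lis1 ko/cko replicates (0.122, 0.0653 and 0.183), without mixed A replicate 1 (0.142) or 3 (0.237), and without any one of the mixed B replicates (0.0617, 0.057 and 0.0591).

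A second Scn2b probe set showed a pattern that the first did not. At P14 probe set 1430648_at was at 9.37, 10.66 and 9.57 in mixed A against 5.39, 5.17 and 5.81 in mixed B, a difference of 4.42 ± 0.45 (adjusted p = 8.36e-08 in the fit of all probe sets), where the first differed by -0.06 ± 0.12. It lay between 9.26 and 9.68 in Lis1 ko/cko and between 9.07 and 9.68 in Lis1 ko/+. Inbred wild type averaged 5.84, and it lay in mix-labelled Ndel1 ko/+ between 5.74 and 6.02, and in Ndel1 ko/+ between 5.41 and 5.63. Ndel1 ko/cko held 5.39, 8.05 and 5.13, with replicate 2 between the high and the low arrays. The split therefore ran within the side of mixed A, since inbred and mix-labelled groups were low. Before P14 no group mean of this probe set exceeded 5.53, so the 3 high groups differed from all others by age and group together. What sets this probe set apart was not tested.

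**Figure D5:**
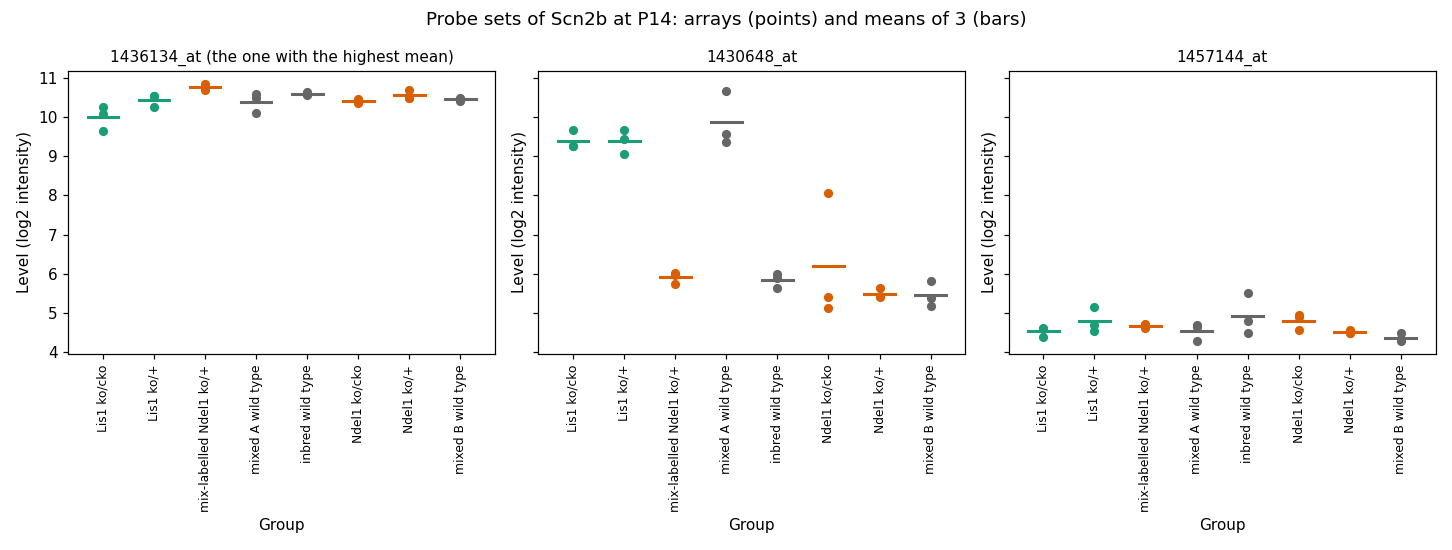
Log2 level of the 3 Scn2b probe sets in every array of P14 (points; bars are means of 3; green Lis1, orange Ndel1, grey wild type); levels of different probe sets are not comparable with each other. In the first panel group means run from 10.00 in Lis1 ko/cko to 10.77 in mix-labelled Ndel1 ko/+, 1430648_at is above 9 in Lis1 ko/cko, Lis1 ko/+ and mixed A and at 6.02 or lower elsewhere save for Ndel1 ko/cko replicate 2 at 8.05, and the third stays under 5.5.

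Which wild type a mutant was set against decided most differences. At P14 Lis1 ko/cko differed from mixed B alone in 19 of 28 members (59.7% of all genes) and from mixed A alone in 2 (13.9% of all genes). Ndel1 ko/cko differed from mixed A alone in 15 of 28 (52.8% of all genes) and from mixed B alone in 0 (0.179% of all genes). Ndel1 ko/+ likewise gave 15 against mixed A alone (52.3% of all genes) and 0 against mixed B alone (0%). Mix-labelled Ndel1 ko/+ went with the Lis1 groups, with 16 against mixed B alone (52.6% of all genes) and 0 against mixed A alone (0.968%), beside 17 (52.6%) and 0 (0.00813%) in Lis1 ko/+. Cacna1h at P14 shows the pattern: it was at 7.72, 7.85 and 7.91 in Lis1 ko/cko, 7.50, 7.42 and 7.60 in mix-labelled Ndel1 ko/+ and 6.68, 6.38 and 6.42 in Ndel1 ko/cko, beside the mixed A and mixed B arrays given above. At P0 the sides were the same. Against mixed B alone 10 members were called in Lis1 ko/cko (32.8% of all genes), 5 in Lis1 ko/+ (20.7%) and 8 in inbred wild type (45.4%), and against mixed A alone 0 in each (2.36%, 0% and 2.44%). Against mixed A alone 12 were called in Ndel1 ko/cko (33.8%), 10 in Ndel1 ko/+ (42.9%) and 7 in Dcx ko/Y (30%), and against mixed B alone 1, 1 and 0 (3.72%, 9.47% and 0.034%). At E14 Ndel1 ko/+ against mixed A alone gave 1 (0.409% of all genes).

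The change from P0 to P14 could be compared between groups by a test of its difference. Against both mixed wild types it gave 1 of 29 members, Cacna2d1, in Lis1 ko/cko (2.87% of all genes). In Ndel1 ko/cko it gave 0 (0.046% of all genes), with 1 at unadjusted p under 0.05, beside 624 of 13053 genes. In mixed A against mixed B it gave 3 of 29, Cacna1c, Cacna1h and Scn4b, all larger in mixed A, beside 11.9% of all genes. Against mixed A alone it gave 1 in Lis1 ko/cko (7.59%) and 6 in Ndel1 ko/cko (15.1%), and against mixed B alone 5 (27.4%) and 0 (0.843%).

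The ko/cko and ko/+ groups of 1 gene can be compared with no wild type. At P0 Ndel1 ko/cko, against ko/+, had 2 of 28 members lower (9.13% of all genes called), both of them alpha2delta subunits; Ndel1 itself was higher in ko/cko than in ko/+ in these libraries. Cacna2d2 was at 7.87, 7.82 and 8.01 in ko/cko against 8.52, 8.49 and 8.28 in ko/+ (-0.53 ± 0.12, adjusted p = 0.0073). Cacna2d3 was at 9.04, 9.17 and 9.14 in ko/cko against 9.43, 9.30 and 9.39 in ko/+ (-0.26 ± 0.08, adjusted p = 0.0367). The Cacna2d2 groups did not overlap and the call held without each array but not with the mean of the gene's probe sets (-0.19, adjusted p = 0.234). The Cacna2d3 call was lost without any one of the 6 arrays (adjusted p between 0.0515 and 0.151), with no filter (0.06) and in 1 fit of all arrays (0.246). At P14 Lis1 ko/cko, against ko/+, gave Cacng5 as above and Scn2b (-0.46 ± 0.12, adjusted p = 0.0232, arrays overlapping), beside 8.02% of all genes. Without Lis1 ko/cko replicate 1 or 3 or Lis1 ko/+ replicate 2 or 3 that Scn2b call was lost (0.092, 0.0633, 0.0851 and 0.0901). The mean of its probe sets (-0.236, adjusted p = 0.379) and 1 fit of all arrays (0.143) lost it too. The other ko/cko groups against ko/+ gave 0 members. The shares of all genes called were 0.0426% and 0.569% for Lis1 at E14 and P0, and 0.128% and 0.309% for Ndel1 at E14 and P14. At unadjusted p under 0.05 Lis1 had 2 members at E14 and 11 at P0, beside 1616 of 11744 and 1766 of 11780 genes. Ndel1 had 1 at E14 and 2 at P14, beside 427 of 11744 and 939 of 12297 genes.

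Most genes had other probe sets to set beside the one used. At P14 against P0 in the mixed wild types 31 further probe sets of 17 members were tested. In 23 both they and the one used were called, and 22 of these had the same sign. The exception was Cacna2d1, of which 1 probe set fell by 1.17 ± 0.21 log2 units where the other 3 rose. At P0 against E14 11 were called together and all had the same sign, and in inbred wild type 24 of 27 had the same sign at P14 against P0. With the mean of a gene's probe sets in place of the one used, the rises of Cacna1e (adjusted p = 0.0854) and Cacna2d2 (1) at P0, the rises of Cacna1b (0.103) and Cacng7 (0.348) at P14 and the fall of Cacna2d2 at P14 (0.202) did not pass in the mixed wild types. In inbred Cacna1c (0.466), Cacna1h (0.0958), Cacna2d2 (0.847), Cacng7 (0.0716) and Cacng8 (0.151) did not pass.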

How the data were processed

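Expression was measured in 78 mouse brain samples on Affymetrix arrays, in 26 groups of 3 taken from the labels. The deposited values are log2 signals, made by RMA per the submitters' processing notes; no version is stated there. They ran from 2.606 to 14.24, and their distributions appeared to be normalised within each age. The number of arrays limits the precision of every value. Of 45101 probe sets 34958 name 1 gene in the platform annotation, 932 several and 9211 none; only the first kind was used, and for each of 18194 genes the probe set of highest mean stood for the gene. Members carry 87 probe sets. The members, their families and the companion and marker lists were chosen with earlier results of these data known.

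Group means were fitted with limma 3.58.1 in R 4.3.3 (lmFit, eBayes with trend), per age, over the 24 wild-type arrays for changes with age, and over all arrays for differences between changes. Genes were tested where the highest group mean of the fit reached 5.253, p-values were adjusted by Benjamini-Hochberg over all genes tested, and an adjusted p under 0.05 was called. Against both mixed wild types the larger p of the 2 contrasts was used where the signs agreed and 1 otherwise, the change is their mean and the SE the larger. The code was tested on simulated data. Named in full were up to 8 called members with the largest rise or fall, and up to 4 genes of a companion list. Lists covered the axon initial segment and node, calcium channel scaffolds, HCN partners with the sodium leak channel, and markers of brain and contaminating cell types; those not described in the report are given among the other observations. Alternatives were other filters, quantile normalization, the mean of a gene's probe sets, 1 fit of all arrays, the replicate number as a block, each wild type alone, each array left out and, chosen after seeing the data, E14 without 6 arrays. Same-numbered samples of different groups did not deviate together (median correlation -0.008 at E14, -0.01 at P0 and 0.012 at P14).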

Additional observations from a re-analysis of the deposited data

Results flagged for a closer look

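Changes from P0 to P14 differed between groups, by a test of the difference itself, in 4 cases among the channel genes. For Cacna2d1 the change in Lis1 ko/cko was smaller than in both mixed wild types by 0.67 log2 units (-0.67 ± 0.18, adjusted p = 0.0305), where 2.87% of all genes were called and 1 of 29 members. Cacna2d1 was at 10.34, 10.37 and 10.52 in Lis1 ko/cko at P14 and 9.87, 9.54 and 9.62 at P0, while mixed A was at 10.70, 10.52 and 10.56 and at 9.48, 9.49 and 8.52, and mixed B at 10.85, 10.90 and 10.77 and at 9.52, 9.44 and 9.44. The call was lost in 9 of 25 alternatives, among them without mixed A replicate 3 at P0 (adjusted p = 0.178), Lis1 ko/cko replicate 1 at P0 (0.102) and Lis1 ko/cko replicate 1 (0.121) or 2 (0.0956) at P14, and without mixed B replicate 2 (0.0571) or 3 (0.0584) at P0 or 1 (0.051) or 2 (0.0674) at P14. None of the 3 other Cacna2d1 probe sets was called.

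Between mixed A and mixed B 3 of 29 members differed in their change from P0 to P14, beside 11.9% of all genes. The change was larger in mixed A by 0.73 ± 0.20 for Cacna1c (adjusted p = 0.0133), 0.86 ± 0.24 for Cacna1h (adjusted p = 0.0113) and 1.19 ± 0.37 for Scn4b (adjusted p = 0.0276). The Cacna1c call was lost without mixed A replicate 3 at P0 (0.0675) and with the mean of its probe sets (0.48, 0.135), and the Cacna1h call with that mean (0.29, 0.185). The Scn4b call was lost without mixed A replicate 2 (0.0513) or mixed B replicate 2 (0.0706) at P0 or mixed B replicate 2 at P14 (0.0967), and with quantile normalization (0.071). The change in Ndel1 ko/cko gave 0 of 29 members against both mixed wild types, beside 0.046% of all genes. At unadjusted p under 0.05 it gave 1 member, beside 624 of 13053 genes. Groups of 3 arrays were not searched for outlying samples.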

How the results depend on the processing

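Over 98 results on single channel genes and 1513 settings, 1402 kept direction and side of the threshold, 108 lost the call and 3 turned direction. Those 3 came with the mean of a gene's probe sets: Cacng8 at P14 against P0 in inbred (0.16), Cacna1a in mixed A against mixed B at P14 (0.045) and Scn2b in Lis1 ko/cko at P14 (0.465). Leaving out 1 array at a time gave 12 to 16 members at P0 against E14, 23 to 25 at P14 against P0 in mixed and 27 to 28 in inbred wild types, 5 to 7 for mixed A against mixed B at P0 and 12 to 15 at P14. It gave 0 to 1 for Ndel1 ko/+ at P0, 1 to 2 for Ndel1 ko/cko against ko/+ at P0, 0 to 2 for Lis1 ko/cko at P14, 0 to 4 for Lis1 ko/cko against ko/+ at P14, 0 to 1 for the change from P0 to P14 in Lis1 ko/cko and 2 to 4 for that in mixed A against mixed B. With no filter 1 member was called for Lis1 ko/cko at P14 and 1 for Ndel1 ko/cko against ko/+ at P0. The stricter filter (7.627) gave 3 for mixed A against mixed B at P0, 1 for Lis1 ko/cko at P14 and 1 for Lis1 ko/cko against ko/+ at P14, with fewer genes tested. The mean of probe sets gave 1 for inbred wild type at P14, 1 for Ndel1 ko/cko at P0, 1 for Ndel1 ko/cko against ko/+ at P0 and 0 for the change in Lis1 ko/cko. One fit of all arrays gave 1 for Lis1 ko/cko at P14, 1 against ko/+ at P14 and 1 for Ndel1 ko/cko against ko/+ at P0. The replicate numbers do not pair the samples. With the replicate number as a block 14, 24 and 28 members were called for the 3 steps of age, and Lis1 ko/cko at P14 had 1. The share of all genes called under each of these settings is not given. The counts therefore do not show whether members changed more often than other genes.

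Against mixed A alone the counts were 1 for Ndel1 ko/+ at E14, 10 for Ndel1 ko/+, 12 for Ndel1 ko/cko and 7 for Dcx ko/Y at P0, 15 for Ndel1 ko/+ and 15 for Ndel1 ko/cko at P14, and 6 for the change in Ndel1 ko/cko. Against mixed B alone they were 8 and 15 for inbred at P0 and P14, 5 for Lis1 ko/+, 10 for Lis1 ko/cko and 1 for Ndel1 ko/cko at P0, 19 for Lis1 ko/cko, 17 for Lis1 ko/+ and 16 for mix-labelled Ndel1 ko/+ at P14, and 5 for the change in Lis1 ko/cko. Leaving out the 16 E14 arrays below the gap in the hindbrain score was run for Lis1 ko/cko against ko/+ only, with 1 array left in ko/cko. In the other E14 comparisons a compared group kept no array. Leaving out the 6 E14 arrays, chosen after seeing the data, left 1 array each in Lis1 ko/cko and mixed A. A lone array is assumed there to vary like the other groups. In these fits some members were called at E14 where the main fit called none. Their counts are not given, since no share of all genes stands beside them. The cause of the differences between settings was not tested. With 3 arrays a group, small changes in genes near background were not detectable.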

Other observations

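Partners of the channels were also counted for the step before birth in the mixed wild types. Of all genes, 14.8% were called higher and 35% lower in that step. Among 17 tested genes of the axon initial segment and node 8 rose and 2 fell at P0 against E14, led by Cntn1, an adhesion molecule that binds sodium channel beta subunits (2.17 ± 0.10 relative to the median gene), while Cntnap2 fell by 0.84 ± 0.11. Of 12 calcium channel scaffolds and regulators 9 rose and 2 fell, with Rims1 (1.64 ± 0.09) and Stx1a (1.35 ± 0.08) of the release machinery higher and Rem2, a small GTPase that inhibits calcium channels, lower by 0.97 ± 0.12. Of 6 HCN partners and sodium leak channel genes 3 rose and 3 fell, and Pex5l (1.64 ± 0.14) and Unc80 (1.55 ± 0.10) were among those higher. In Lis1 ko/cko at P14, against both mixed wild types, 2 partners were called, beside 6.32% of all genes. Cabp1, a calcium sensor that binds calcium channels, was higher by 0.96 ± 0.11 (adjusted p = 0.0198) and Pex5l by 0.73 ± 0.15 (adjusted p = 0.0126).

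Other marker lists were counted at P14 against P0 in the mixed wild types, where 34.3% of all genes were called higher and 22.1% lower. They gave 6 of 6 higher for microglia, 2 of 7 higher for endothelium and mural cells, 2 of 3 higher for skeletal muscle and 1 of 1 lower for heart muscle. Sensory ganglia had 1 higher and 1 lower of 4, choroid plexus 3 lower of 4, hindbrain and spinal cord 2 higher of 5, cerebellum 2 higher and 2 lower of 5, and cortex and hippocampus 1 lower of 5. Red blood cells had 0 of 3 called, and meninges and fibroblasts 0 of 6.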
